A study of Rattus norvegicus with 9 samples.

Results

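The subunits of NADPH oxidase were followed in RNA sequencing of rat striatal tissue. The set holds 7 genes, Cybb, Cyba, Ncf1, Ncf4, Rac1, Rac2 and Nox4, chosen by name as rows of the count files, and all 7 were found among 22890 gene IDs. The study has 9 libraries, 3 in each of 3 groups. Sham is the control group, ICH is the group with intracerebral hemorrhage, which is bleeding into brain tissue, and EDB is the group named for edaravone dexborneol, a combination of edaravone, which scavenges free radicals, and dexborneol. The labels do not say whether EDB rats also had a hemorrhage, and EDB was therefore set against each of the other groups. The labels also leave out strain, age, sex, dose, time after injury and the way the hemorrhage was made. Whether each library is from its own animal is not stated, so p-values measure only the spread between these samples, and how much of it is technical is unknown.

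NADPH oxidases move electrons from NADPH across a membrane to oxygen and so make superoxide. In phagocytes the enzyme rests as a membrane heterodimer of Cybb, the catalytic chain, and Cyba, its partner. It becomes active when cytosolic subunits, among them the organizer Ncf1 and the regulatory Ncf4, and a Rac GTPase join it. Rac2 is the GTPase of blood-forming cells, whereas Rac1 is made in nearly all cells and also controls the actin cytoskeleton. Nox4 is a different catalytic chain that also pairs with Cyba and needs no cytosolic subunit. In brain the phagocyte form is known mainly from microglia and from leukocytes that enter after injury.

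Promoter sequences were available for 4 of the 7 members in the RefSeq table of build GRCr8. The 3 below are shown because Cybb, Cyba and Ncf1 form the membrane pair and the organizer, and their transcripts rose together in ICH. Each is the 250 bases before the annotated start, 5′ to 3′ on the gene's strand. Capitals mark matches, on either strand, to GAGGAA, the core bound by the myeloid factor PU.1, to a spaced repeat bound by interferon regulatory factors (GAAA, any 2 bases, GAAA), and to GGGCGG, the GC box. The counts rest on another build, Rnor_6.0, so these positions were used with no count.
Cybb, chrX:16065066-16065315, minus strand: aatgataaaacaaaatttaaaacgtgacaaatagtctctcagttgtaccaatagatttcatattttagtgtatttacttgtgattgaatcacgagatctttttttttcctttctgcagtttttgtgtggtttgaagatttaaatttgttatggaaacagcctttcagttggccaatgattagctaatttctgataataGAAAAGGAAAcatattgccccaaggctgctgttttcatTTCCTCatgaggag
Cyba, chr19:67404215-67404464, minus strand: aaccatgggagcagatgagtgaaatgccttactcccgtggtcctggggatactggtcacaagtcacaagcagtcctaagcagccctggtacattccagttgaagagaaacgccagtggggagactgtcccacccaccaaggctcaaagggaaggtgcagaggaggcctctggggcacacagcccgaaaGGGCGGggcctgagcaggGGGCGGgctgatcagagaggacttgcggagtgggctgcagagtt
Ncf1, chr12:28121635-28121884, plus strand: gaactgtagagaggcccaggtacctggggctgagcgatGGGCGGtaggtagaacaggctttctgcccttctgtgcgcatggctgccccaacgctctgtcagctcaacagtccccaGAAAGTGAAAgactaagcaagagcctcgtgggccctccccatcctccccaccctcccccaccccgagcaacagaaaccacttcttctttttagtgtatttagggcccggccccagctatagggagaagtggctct

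The spaced repeat began 52 bases before the start in Cybb and 135 bases before it in Ncf1, and no match was found in the Cyba window. It is present in 3.41% of all 33469 promoter windows of this length. The Cybb window also held the PU.1 core on the opposite strand, 14 bases before the start, a core found in 23.3% of windows. The GC box, found in 30.5% of windows, matched at 2 places in Cyba, 62 and 44 bases before the start, and at 1 place in Ncf1, 212 bases before it. The Cybb window was poor in G and C at 32.0%, against 59.6% in Cyba, 58.4% in Ncf1 and a median of 51.2% over all windows. No match of these motifs overlapped another. A match is a description of the letters and not a test of binding.

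Total counts ran from 14658110 to 17659936 per library. Levels are CPM, that is, counts relative to the TMM-scaled library size, listed in the order of libraries 1, 2 and 3. Each change is a log2 fold change with its SE, from 3 libraries a group. Genes called, or described as having risen or fallen, had an adjusted p under 0.05 in edgeR's quasi-likelihood test over 14274 genes. Along the second principal component, with 18.5% of the variance, Sham 2 lay apart from Sham 1 and Sham 3. ICH 1 had no counts of the Y-linked genes Kdm5d and Eif2s3y, and Kdm5d stood at 10.3 to 18.5 CPM in the other 8 libraries. By these genes ICH 1 appears to come from an animal of another sex than ICH 2 and ICH 3. ICH 1 was also the highest ICH library for every member tested. Choroid plexus transcripts were high in EDB 3, with Ttr at 6684 CPM against 17.0 to 52.5 CPM elsewhere. The striatal markers Ppp1r1b and Penk were present in every group, with summed levels of 8 projection neuron genes of 7634 to 12480 CPM in Sham, 5465 to 6850 CPM in ICH and 8127 to 9266 CPM in EDB.

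Of the 7 members, 6 passed the filter on low counts, and each of these 6 exceeded its cutoff of 0.614 CPM in all 9 libraries. Nox4 did not pass. Its 9 counts were spread as 3 in Sham 3, 3 in ICH 1 and 3 in EDB 1, and the other 6 libraries had none. Over a group this is 0.067 CPM in Sham (95% exact Poisson interval 0.0138 to 0.196), 0.0582 CPM in ICH (0.012 to 0.17) and 0.0614 CPM in EDB (0.0127 to 0.18), intervals that cover counting error only. A difference in Nox4 was not detectable at this depth.

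All 6 tested members rose in ICH against Sham, the comparison that shows what the hemorrhage group differed in. In that comparison 18.7% of all genes tested were called, 11.4% as higher and 7.3% as lower. The members' median log2 fold change was 3.17, against 0.01 over all genes tested. The largest rises were those of Ncf4 (12.6-fold) and Cybb (11.4-fold), and the smallest was that of Rac1 (1.42-fold). In the tissue as a whole, more cells of a type and more RNA per cell cannot be told apart.

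Among the membrane subunits, Cybb measured 2.44, 0.821 and 3.04 CPM across Sham, from 39, 12 and 43 counts. It measured 31.6, 22.3 and 18.1 CPM across ICH, and 5.32, 8.87 and 3.88 CPM across EDB. The 3 groups did not overlap, and Sham 2 was the lowest library. The rise in ICH against Sham was 3.51 ± 0.45 on the log2 scale (adjusted p = 0.000350). Cyba, its partner, measured 11.1, 9.37 and 9.84 CPM across Sham, 66.9, 52.5 and 49.7 CPM across ICH, and 33.7, 25.4 and 17.5 CPM across EDB. It rose by 2.48 ± 0.23 in ICH (adjusted p = 6.06e-05), with the EDB libraries all between the other groups.

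**Figure D1:**
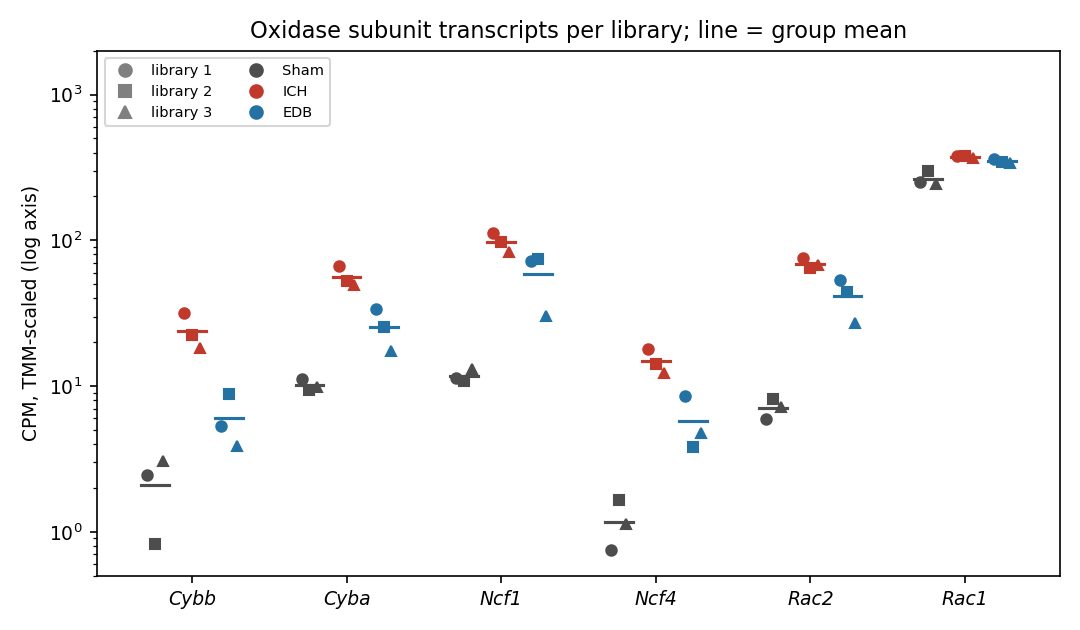
TMM-scaled CPM on a log axis for the 6 tested members in each of the 9 libraries, with marker shape giving the library number, colour the group and short lines the group means. For every member the 3 ICH libraries lie above the 3 Sham libraries, and the EDB libraries lie between them.

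Of the cytosolic subunits, Ncf1, the organizer, measured 11.4, 10.9 and 13.1 CPM across Sham, 112.8, 97.4 and 83.1 CPM across ICH, and 71.8, 74.2 and 30.4 CPM across EDB. The groups did not overlap, and EDB 3 lay well below EDB 1 and EDB 2. Ncf1 rose by 3.05 ± 0.30 in ICH against Sham (adjusted p = 7.14e-05). Ncf4, which binds membrane phosphoinositides, measured 0.750, 1.64 and 1.13 CPM across Sham, 17.8, 14.2 and 12.4 CPM across ICH, and 8.60, 3.84 and 4.75 CPM across EDB. It rose by 3.65 ± 0.39 (adjusted p = 0.000108), from 52 counts over the Sham libraries to 761 over the ICH libraries. Its highest EDB library was EDB 1, whereas that of Cybb was EDB 2.

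The GTPases differed in size of change. Rac2 measured 5.94, 8.14 and 7.15 CPM across Sham, 76.1, 64.2 and 67.6 CPM across ICH, and 53.3, 44.5 and 26.9 CPM across EDB. Its rise of 3.29 ± 0.25 in ICH (adjusted p = 2.39e-05) had the smallest p of the members. Rac1 measured 250.5, 297 and 243 CPM across Sham, 378, 377 and 369 CPM across ICH, and 360.4, 347 and 338 CPM across EDB. It rose by 0.51 ± 0.11 (adjusted p = 0.00941), and its call was lost when Sham 1 (adjusted p = 0.0668) or when ICH 2 was left out (adjusted p = 0.0543). The other 5 tested members kept their calls in ICH against Sham under all 18 alternatives run. Rac1 and Rac2 have similar coding sequences, and how reads matching both were counted is unknown.

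Within a library, the log2 ratio of Rac2 to Rac1 was -5.39, -5.18 and -5.08 in Sham, -2.31, -2.55 and -2.45 in ICH and -2.76, -2.96 and -3.65 in EDB. This ratio does not depend on library scaling. It was 6.88-fold higher in ICH than in Sham and 1.61-fold lower in EDB than in ICH, or 0.42 lower on the log2 scale without EDB 3 in place of 0.69. None of these 3 groups overlapped in it. An exact two-sided permutation test gave p = 0.1 for each pair of groups, the smallest that 3 against 3 allows, and 0.15 adjusted over 18 comparisons of ratios.

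EDB was set against ICH to show how the drug group differed from the hemorrhage group. Every tested member was lower in each EDB library than in each ICH library, and 1 of them, Cyba, fell. How many of all genes separated in this way was not counted, so the separation is not read as particular to the members. In EDB against ICH 0.687% of all genes were called, 0.631% as lower and 0.056% as higher. Cyba fell by 1.14 ± 0.22 on the log2 scale, 2.21-fold (adjusted p = 0.0475). The call was lost without Sham 1 (adjusted p = 0.0689), Sham 3 (0.0712), ICH 1 (0.149), ICH 2 (0.151), ICH 3 (0.103), EDB 2 (0.110) or EDB 3 (0.0927), by edgeR's test. With only the 6 libraries compared it was also lost (0.0643).

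Cybb had the largest fitted difference between EDB and ICH, at -1.99 ± 0.41 (3.98-fold lower, 95% interval -2.90 to -1.09), and its adjusted p was 0.0580. It was called with DESeq2 (adjusted p = 0.000163), with limma-voom (0.0298), with only the 6 libraries compared (0.0470) and without Sham 2 (0.0272). Ncf4 had -1.37 ± 0.34 (adjusted p = 0.0936) and was called with DESeq2 (0.00763) and limma-voom (0.0451). DESeq2 called 4.88% of all genes in this comparison and limma-voom 1.31%. Rac2 had -0.74 ± 0.22 (adjusted p = 0.137) and Ncf1 -0.73 ± 0.27 (adjusted p = 0.219). Rac1 had -0.10 ± 0.11, with a 95% interval of -0.35 to 0.14. The members' median was -0.94, against -0.03 over all genes tested.

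**Figure D2:**
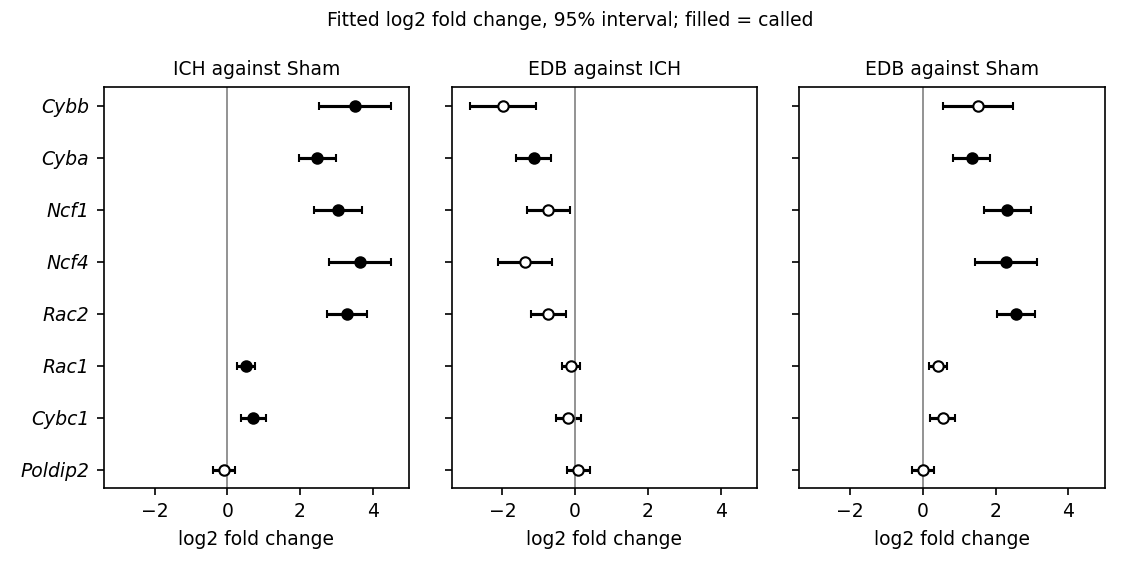
Fitted log2 fold changes with 95% intervals for the 6 tested members and for Cybc1 and Poldip2 in the 3 comparisons, where filled points were called. In ICH against Sham all but Poldip2 are filled, and in EDB against ICH only Cyba is filled, while the point farthest to the left is that of Cybb at -1.99.

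EDB and Sham were compared to see how the drug group differed from the control group. All 6 tested members were higher in each EDB library than in each Sham library. How many of all genes separated likewise was not counted. Of the members 4 were called, where 7.66% of all genes were called, 4.95% as higher and 2.71% as lower. Rac2 rose by 2.55 ± 0.24 (5.88-fold, adjusted p = 0.000467), Ncf1 by 2.32 ± 0.30 (4.99-fold, adjusted p = 0.00124), Ncf4 by 2.28 ± 0.38 (adjusted p = 0.00482) and Cyba by 1.34 ± 0.23 (adjusted p = 0.00524). Cybb had 1.52 ± 0.44 (adjusted p = 0.0612) and Rac1 0.40 ± 0.11 (adjusted p = 0.0524). Cybb was called as higher with DESeq2 (adjusted p = 0.00553) and without EDB 3 (0.0474). Rac1 was called with DESeq2 (adjusted p = 0.0115), with library size only (0.0265), with a filter of 1 CPM (0.0493) and without Sham 2 (0.0129). The members' median was 1.90, against -0.01 over all genes. This comparison shares its libraries with the other comparisons, so its values are given side by side with theirs and not as independent evidence.

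The comparison was repeated with 2 libraries per group, leaving out Sham 2, ICH 1 and EDB 3, a choice made after seeing the data. The number of members called was then 6 in ICH against Sham, 1 in EDB against ICH and 6 in EDB against Sham. Of all genes, 16% were called in the first of these comparisons, 1.38% in the second and 11.4% in the last. In EDB against ICH the called member was Cybb (adjusted p = 0.0417) and no longer Cyba (0.0635).

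The phagocyte subunits are made in myeloid cells, though Cyba, which also pairs with Nox4, may be made in other cells too. Each was therefore also expressed relative to 6 genes common to myeloid cells, Ptprc, Itgam, Csf1r, Aif1, Spi1 and Laptm5. All 6 of these rose in ICH against Sham (median log2 fold change 2.48) and all 6 had fitted values below 0 in EDB against ICH (median -0.58). In the latter comparison edgeR's test called none of them, 4 had an unadjusted p under 0.05, and DESeq2 called 2, Ptprc (-1.31, adjusted p = 0.0415) and Spi1 (-0.80, adjusted p = 0.0151). Their summed level was 297 to 364 CPM in Sham, 1332 to 1413 CPM in ICH and 653 to 1223 CPM in EDB, lowest in EDB 3. On the log2 scale, Cybb minus the mean of these genes was -2.57, -4.34 and -2.79 in Sham, -1.69, -1.87 and -2.23 in ICH, and -3.53, -2.93 and -3.32 in EDB. The ICH libraries were the highest, and EDB and Sham overlapped. Cybb was 2.50-fold lower in EDB than in ICH on this relative scale (-1.32), and without any single library the value lay between -1.49 and -1.19.

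Relative to these genes, Rac2 was -1.29, -1.08 and -1.57 in Sham, -0.43, -0.35 and -0.33 in ICH, and -0.21, -0.60 and -0.53 in EDB. EDB and ICH overlapped and differed by -0.08, whereas EDB and Sham did not overlap and differed by 0.87. For Ncf1 the difference was -0.12 between EDB and ICH, or 0.06 without EDB 3, and 0.57 between EDB and Sham. Cyba differed by 0.12 between ICH and Sham, with overlap and with a value of -0.04 without Sham 3, and was lower in EDB than in ICH by 0.47, with no overlap. Ncf4 was 1.32 higher in ICH than in Sham and 0.72 lower in EDB than in ICH, or 0.32 lower without EDB 2. On this scale EDB and ICH overlapped for Ncf1 and Rac2 and did not overlap for Cybb, Cyba and Ncf4. By the exact permutation test each difference without overlap had p = 0.1 and 0.15 adjusted over 18 comparisons, so that none could pass the threshold in this design. The value of Cybb in ICH against Sham was 1.30 with all libraries and 0.75 without Sham 2.

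**Figure D3:**
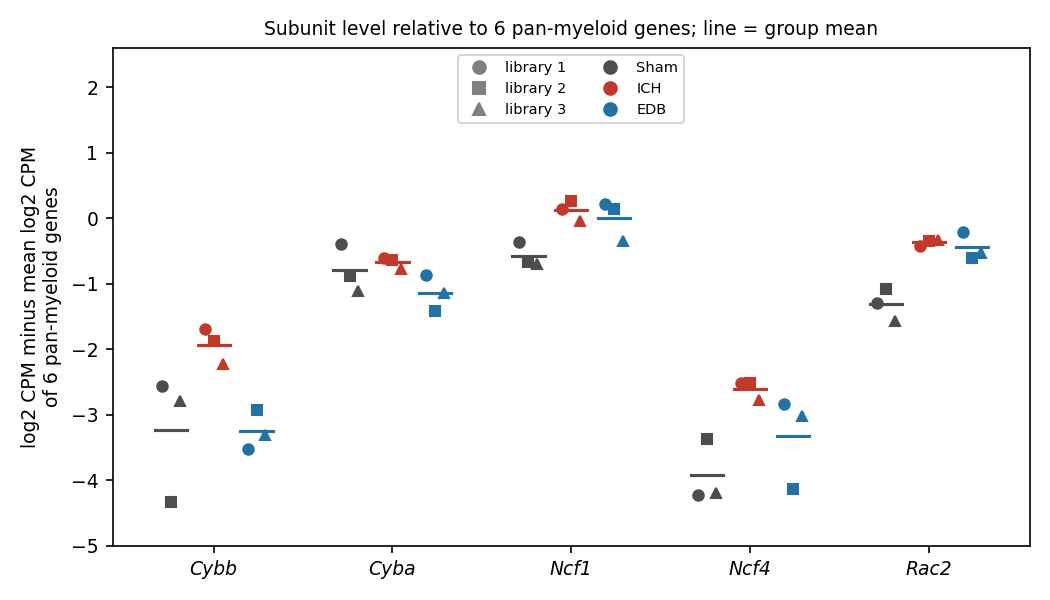
Level of each phagocyte subunit relative to 6 pan-myeloid genes, as log2 CPM minus their mean log2 CPM, per library, with short lines at the group means. For Cybb the 3 ICH libraries lie above all EDB libraries, whereas for Rac2 and Ncf1 the ICH and EDB libraries overlap and both lie above Sham. For Ncf1 this separation is narrow, with EDB 3 at -0.356 and Sham 1 at -0.361.

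With 6 homeostatic microglia genes as the reference, among them P2ry12, Tmem119 and Cx3cr1, the ICH against Sham differences were larger, at 2.33 for Cybb, 1.15 for Cyba, 1.73 for Ncf1, 2.36 for Ncf4 and 1.98 for Rac2. Against that reference the EDB against ICH differences were also larger, at -1.55 for Cybb, -0.69 for Cyba, -0.35 for Ncf1, -0.95 for Ncf4 and -0.31 for Rac2, so the small values of Ncf1 and Rac2 depended on the reference. The EDB against Sham differences were 0.78 for Cybb in place of -0.02, 0.46 for Cyba in place of -0.35, 1.38 for Ncf1, 1.41 for Ncf4 and 1.68 for Rac2.

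Summed markers of neutrophils, of monocytes and border macrophages, and of microglia were higher in ICH than in Sham. In EDB against ICH edgeR's test called none of these genes. The EDB and ICH sums overlapped for the monocyte and microglia lists and not for the neutrophil list. Of 11 neutrophil genes 5 were tested, and 3 rose in ICH against Sham. Their summed level was 9.31 to 11.7 CPM in Sham, 56.2 to 70.7 CPM in ICH and 22.2 to 39.1 CPM in EDB. Most of this sum was Csf3r, which microglia also express (53.3 CPM in ICH), while the granule genes Mpo, Ltf and Elane had 3, 4 and 3 counts in all 9 libraries together, and S100a9 stood at 3.57 CPM in ICH. Of 7 monocyte and border macrophage genes, 6 were tested and 4 rose, and the sum was 17.99 to 33.0 CPM in Sham, 55.9 to 137.5 CPM in ICH and 32.5 to 66.0 CPM in EDB. Vcan and Plac8 were the most abundant of these genes, and Ccr2 had 22 counts in all. Vcan averaged 18.5 CPM in Sham, most of the sum there, 45.9 CPM in ICH and 23.7 CPM in EDB. Its ICH libraries stood at 74.7, 33.6 and 29.4 CPM. Of 8 microglia genes 7 were tested and 4 rose, with Cx3cr1 the most abundant and sums of 287 to 360.4 CPM, 778 to 930 CPM and 466 to 808 CPM in Sham, ICH and EDB. The part of these cells in the members' changes was not tested. T and B lymphocyte genes summed to at most 3.13 CPM in any library. The summed level of 6 endothelial genes, led by Flt1 and Pecam1, was 289 to 434 CPM in Sham, 229 to 284 CPM in ICH and 226 to 251 CPM in EDB. Astrocyte genes, led by Gfap and Slc1a3, summed to 2057 to 2730 CPM in Sham, 7305 to 7598 CPM in ICH and 4731 to 5461 CPM in EDB, and 2 of 6 rose in ICH against Sham. Most of that difference was Gfap, which averaged 484 CPM in Sham, 4918 CPM in ICH and 3234 CPM in EDB. Slc1a3 averaged 844, 943 and 711 CPM and was not called in ICH against Sham.

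Further genes of the oxidase family were looked at beside the members. Cybc1, the chaperone that the Cybb and Cyba heterodimer needs for its stability, averaged 25.2 ± 1.23 CPM across Sham and 41.5 ± 7.87 CPM across ICH (SD, n = 3). It rose by 0.72 ± 0.16 (adjusted p = 0.00912), lost without ICH 2 (adjusted p = 0.0544). Poldip2, which binds Cyba and regulates Nox4, stood at 117.0 ± 18.7, 109.8 ± 11.8 and 116.9 ± 9.44 CPM in Sham, ICH and EDB and was not called in any comparison. Nox1, another catalytic chain, stayed under 1.14 CPM in every library and was not called either. A further 8 genes, Nox3, Noxo1, Noxa1, Duox1, Duox2, Duoxa1, Duoxa2 and Rac3, had 73 counts or fewer over all 9 libraries and were not tested.

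Genes that prime, assemble or support the oxidase formed a list of 25, of which 24 were tested. In ICH against Sham 14 rose, 1 fell and 9 were not called, with a median log2 fold change of 1.13. Over all genes tested, 11.4% rose and 7.3% fell. Vav1, a Rac exchange factor of blood-forming cells, rose by 3.04 ± 0.26 (adjusted p = 3.79e-05). The kinases Btk (2.83 ± 0.29) and Syk (2.10 ± 0.22) and the integrin chain Itgb2 (2.22 ± 0.23), all of leukocyte receptor signalling, rose as well. Arhgdib, which holds Rac in the cytosol, rose by 1.35 ± 0.16, and the gene that fell was the protein kinase C isoform Prkcb (-0.83 ± 0.20).

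In EDB against ICH, 1 of these 24 genes was called, Arhgdib, which fell from 62.0 to 32.3 CPM (-0.94 ± 0.16, adjusted p = 0.0408), and the list's median was -0.39. That call was lost without Sham 1 (adjusted p = 0.0575), Sham 3 (0.0520), ICH 1 (0.0869), ICH 2 (0.124), ICH 3 (0.101), EDB 2 (0.0758) or EDB 3 (0.0866). DESeq2 called 9 of the list in this comparison, among them Vav1, Btk, Syk and Itgb2. Over all genes, edgeR's test called 0.687% here and DESeq2 4.88%. In EDB against Sham 12 rose and 12 were not called, and the count fell to 6 without Sham 1, 7 without Sham 3 and 6 without EDB 1. The share of all genes called fell likewise, from 7.66% to 4.09% without Sham 1, 4% without Sham 3 and 3.51% without EDB 1. Hvcn1, the proton channel that balances the charge moved by the oxidase, had 0.69 ± 0.28 in ICH against Sham (adjusted p = 0.110).

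**Figure D4:**
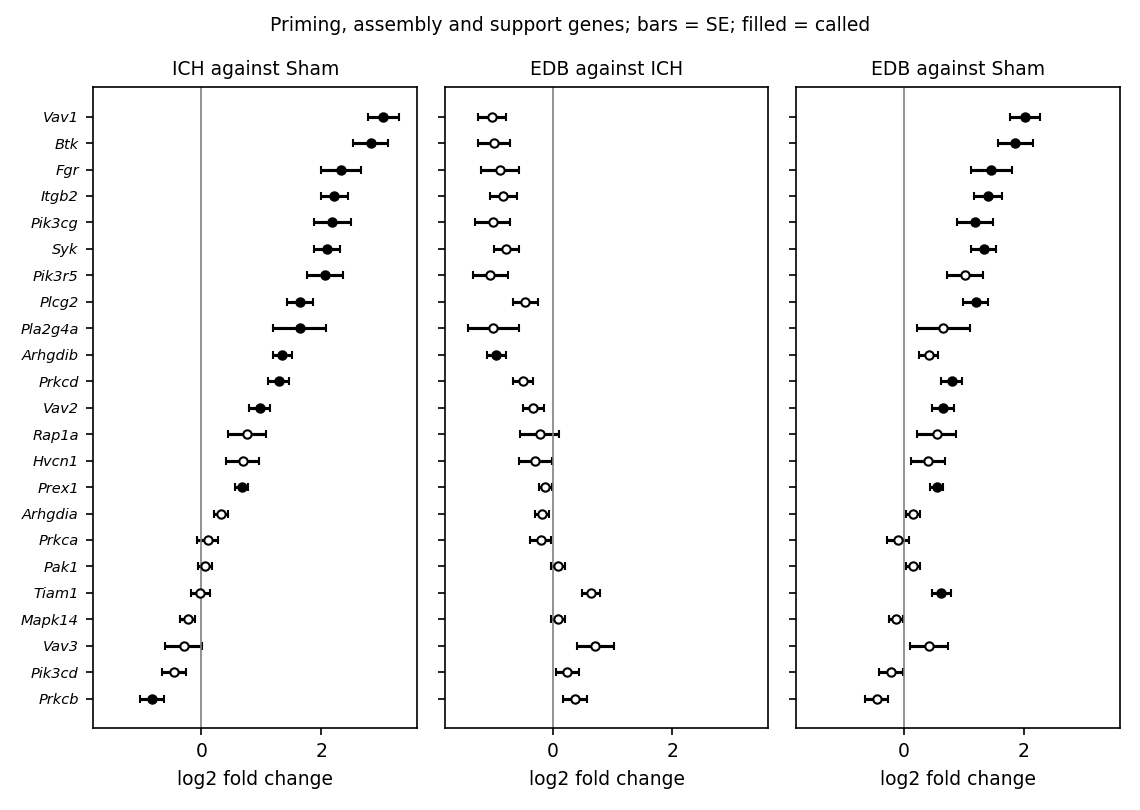
Fitted log2 fold changes with SE bars for 23 of the 24 tested priming, assembly and support genes, ordered by their value in ICH against Sham, where filled points were called. The leukocyte genes Vav1 and Btk head the order in ICH against Sham, and Arhgdib is the only filled point in EDB against ICH.

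The genes whose profile over the 9 libraries was nearest to a member's were found among 10788 tested genes with a symbol and at least 5 CPM on average. Likeness was the root mean square difference of mean-centred log2 CPM. Nearest to Cybb were Fyb1 (0.38), Fgl2 (0.42), Mpeg1 (0.44) and Lyz2 (0.55), the last the lysozyme of macrophages. Mpeg1 stood at 64.2, 384 and 164 CPM in Sham, ICH and EDB. Nearest to Cyba were Arpc1b (0.16), a subunit of the actin-nucleating complex, Dnase2 (0.18), Sh2b2 (0.18) and Otulinl (0.19). Nearest to Rac1 were Yipf1 (0.04), Kars (0.04), Commd9 (0.05) and Eif3l (0.05), with Kars the lysyl-tRNA synthetase and Eif3l a translation initiation subunit. Among the members, Ncf1 and Rac2 had the most similar profiles, 0.24 apart, and Cybb lay 0.68 to 0.88 from the other phagocyte subunits. No neighbours were sought for Nox4, which had 9 counts.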

How the data were processed

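The authors deposited read counts per gene, 1 library per file. The submitters' processing notes name cutadapt, HISAT2, HTSeq and limma on Rnor_6.0, with no versions, and the annotation and strand setting used by the authors are unknown here. Of 22890 gene IDs, 16799, all 7 members included, matched a symbol in RefSeq's GRCr8 table.

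The analysis used edgeR 4.0.16 under R 4.3.3. Genes were filtered with filterByExpr by group, libraries scaled by TMM, and all 9 fitted in 1 model with a mean per group (glmQLFit, robust). Pairs of groups were compared by the quasi-likelihood test with Benjamini-Hochberg adjustment over 14274 genes. SE is the fold change divided by the root of F. Log2 CPM used a prior count of 0.5. Ratios were tested by exact two-sided permutation. The procedure was tested on simulated data.

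Members and lists were chosen with earlier results of these data known. Named were all members, the tested family genes, the 5 support genes with the smallest p in ICH against Sham and those called in EDB against ICH, 4 nearest profiles per member, and the 2 most abundant genes of marker lists beside a result. Prkcb, Hvcn1, S100a9, Mpo, Ltf, Elane, Ccr2, Ttr, Kdm5d and Eif2s3y were added after their values were seen. Some genes the rule names are not reported here, though list counts and sums hold them.

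Alternatives were RLE scaling, library size only, no filter, DESeq2 1.42.0, a filter of 1 CPM or more in 3 libraries, voom from limma 3.58.1, the 6 libraries compared, a replicate block and leaving out each library.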

Additional observations from a re-analysis of the deposited data

How the results depend on the processing

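In EDB against ICH, 1 member was called. DESeq2 and limma-voom called 3 (Cyba, Cybb and Ncf4), and leaving out single libraries gave 0 to 2. In ICH against Sham the count was 5 or 6 and in EDB against Sham 4 to 6 over all 18 alternatives, and every tested member kept the direction of its fold change in all 3 comparisons. Over all genes, calls ran from 1769 to 3265 in ICH against Sham (2670 in the analysis reported), 8 to 696 in EDB against ICH (98) and 508 to 1796 in EDB against Sham (1094). Of the support genes in EDB against ICH, 1 was called, with 9 by DESeq2, 2 by limma-voom, 2 with 2 libraries per group and 0 to 2 without single libraries; in EDB against Sham 12 were called, and 6 to 12 without single libraries. Of the further family genes, ICH against Sham gave 2 calls and 1 to 2 without single libraries, EDB against ICH gave 0 with edgeR and 1 with DESeq2, and EDB against Sham gave 1, with 2 by DESeq2, 0 by limma-voom, 0 with only the 6 libraries compared and 0 to 1 without single libraries. Of the 4 tested, 1 had an unadjusted p under 0.05 in EDB against ICH. The cause of these differences was not tested.

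Poldip2, not called, changed sign. In ICH against Sham (-0.09) it was 0.012 with library size only, 0.11 with 2 libraries per group and -0.18 to 0.049 without single libraries. In EDB against Sham (0.00 to 2 decimals) it was 0.028 with library size only, 0.0028 without a filter, 0.0071 with limma-voom, 0.0037 with the replicate block, 0.00065 with only the 6 libraries compared, 0.14 with 2 libraries per group and -0.079 to 0.14 without single libraries. Nox1 in EDB against ICH ran from -0.068 to 0.80 without single libraries. Without a filter on low counts, Nox4 was tested and had adjusted p-values of 0.978, 1 and 1 in the 3 comparisons by edgeR.

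The labels do not say whether the replicate numbers pair the libraries. Same-numbered libraries of different groups had correlations of their deviations from the group means from -0.304 to 0.221, and differently numbered libraries from -0.183 to 0.331. Each group's deviations sum to 0 over 3 libraries, so these correlations can neither show nor exclude a pairing. With the replicate number as a block, 6, 1 and 4 members were called in ICH against Sham, EDB against ICH and EDB against Sham, as without it. Depth limits Nox4 and the family genes that were not tested.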

Other observations

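Ratios between pairs of the 5 phagocyte subunits were looked at after their values had been seen. Per library, the log2 ratio of Cybb to Ncf1 was -2.21, -3.67 and -2.09 in Sham, -1.84, -2.13 and -2.19 in ICH and -3.75, -3.06 and -2.96 in EDB. Cybb was 2.30-fold lower relative to Ncf1 in EDB than in ICH, 2.37-fold lower relative to Rac2 and 1.81-fold lower relative to Cyba, without overlap of the libraries. Relative to Ncf4, Cybb differed by -0.60 on the log2 scale, with overlap, and by -0.22 without EDB 1. Of the 10 pairs, 5 did not overlap between EDB and ICH, and the other two such pairs were Cyba to Rac2 (-0.39) and Ncf4 to Rac2 (-0.64). The exact two-sided permutation p was 0.1 for each pair without overlap, the smallest possible, and 0.273 adjusted over 30 comparisons. Ncf1 relative to Rac2 differed by -0.04 on the log2 scale between EDB and ICH, with overlapping libraries.

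Duox1, a dual oxidase that makes hydrogen peroxide, was below the filter, with 2, 8 and 3 counts across Sham, 10, 12 and 23 across ICH, and 10, 2 and 3 across EDB. Its maturation factor Duoxa1 had 1 count over the Sham libraries, 11 over the ICH libraries and 6 over the EDB libraries. In both genes each ICH library lay above each Sham library in CPM, and neither was tested. The other untested family genes, Nox3, Noxo1, Noxa1, Duox2, Duoxa2 and Rac3, overlapped between these groups. How many of all genes separated likewise was not counted, so the separation is not read as a rise of Duox1 or Duoxa1.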
